A study of Homo sapiens with 32 samples.

Results

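Mucins are large, heavily glycosylated proteins that coat epithelial surfaces. The transmembrane mucins sit in the apical membrane, where their extended outer domains form a barrier and their cytoplasmic tails can signal, while secreted gel-forming mucins such as MUC2, the main mucin of the intestinal goblet cell, polymerise into mucus. HNF4α is a nuclear receptor that binds DNA as a homodimer at direct repeats related to AGGTCA and is a regulator of intestinal, hepatic and pancreatic epithelial genes. Its gene has an upstream promoter called P2 and a downstream one called P1, and their isoforms differ at the N-terminus while sharing the DNA-binding domain. Here its binding was followed at 8 mucin genes: the transmembrane mucins MUC1, MUC4, MUC12, MUC13, MUC16, MUC17 and MUC20 and the secreted mucin MUC2. They are 8 of the 20037 protein-coding genes of the annotation. In each of 18 peak lists, 1 per library, every peak whose summit lay within 50 kb of the span of one of these genes was taken. The peaks of all lists merged into 72 regions of 78729 in the whole data set.

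The lists come from chromatin immunoprecipitation sequencing (ChIP-seq) in 3 human pancreatic ductal adenocarcinoma lines grown as monolayers, Panc10.05, BxPC3 and AsPC1 (ASPC1 in the labels). In Panc10.05, doxycycline induced the P1 isoform α2 (P1-α2, 25 ng/mL) or the P2 isoform α8 (P2-α8, 12.5 ng/mL), so isoform and dose cannot be told apart in that line. In BxPC3 both isoforms were induced with 500 ng/mL, so line and dose cannot be told apart between these lines. The titles of the BxPC3 α8 libraries name P1 and their genotype label names P2, and the genotype label was used. AsPC1 carried CRISPR interference, which represses transcription at the site a guide RNA is directed to, with the genotypes sgP1, sgP2 or sgNC; no doxycycline is labelled for it. An antibody to HNF4α (PP-H1415), called pan below, was used for all 7 of these groups, and an antibody labelled as HNF4α-P1 (PP-K9218) also for AsPC1 sgP2 and sgNC. Each of the 9 groups had 2 libraries. The labels do not say whether these came from separate cultures, so p-values measure only the spread between libraries, which may be technical. Each line has a sequencing series of its own in the library names, so line and series cannot be told apart. Peak lists hold no expression values, so the lines were not checked against marker genes. The lists held between 260 and 41808 peaks and read depth is unknown. The induced lines were called at a −log10 q just above 8 or higher and AsPC1 just above 2 or higher, so peak numbers were not tested between them.

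Peaks lay directly at the start of 4 of the genes, and 3 of those promoters are printed because they carry a stretch that matches an HNF4 site or its core under or near the summits. They are the 250 bases before the start of transcription from RefSeq (GRCh38.p14), read in the direction of the gene, with CAAAG or its complement CTTTG, the core of the HNF4 half-site, in capitals. The RefSeq table matched 7 of the 8 members, with 9 promoters.
MUC13, chr3:124934752-124935001, minus strand: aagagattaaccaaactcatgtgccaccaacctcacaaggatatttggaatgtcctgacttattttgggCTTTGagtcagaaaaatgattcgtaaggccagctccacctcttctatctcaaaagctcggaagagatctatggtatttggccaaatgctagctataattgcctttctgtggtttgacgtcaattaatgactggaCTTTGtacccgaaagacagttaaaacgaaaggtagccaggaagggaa
MUC17, chr7:101019831-101020080, plus strand: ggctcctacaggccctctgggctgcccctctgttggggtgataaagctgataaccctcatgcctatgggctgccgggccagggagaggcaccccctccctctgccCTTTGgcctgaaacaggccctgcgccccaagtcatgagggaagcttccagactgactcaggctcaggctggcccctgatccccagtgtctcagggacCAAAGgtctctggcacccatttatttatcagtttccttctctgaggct
MUC16, second promoter inside the gene, chr19:9010410-9010659, minus strand: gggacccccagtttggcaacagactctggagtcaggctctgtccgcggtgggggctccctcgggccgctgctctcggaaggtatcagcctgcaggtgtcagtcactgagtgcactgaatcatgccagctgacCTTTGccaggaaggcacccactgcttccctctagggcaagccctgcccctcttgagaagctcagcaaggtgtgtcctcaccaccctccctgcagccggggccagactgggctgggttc

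The MUC13 promoter held the HNF4 word CAAAGTCCA, read as TGGACTTTG along the gene, with its first base 51 bases before the start. In the 15 lists with a peak over this promoter, the summit lay a median of 14 bp from the middle of the word, between 4 and 66 bp, and within 50 bp in 13 lists. The second MUC16 promoter held the related word CAAAGGTCA, read as TGACCTTTG from 122 bases before its start, and the summits of its 2 peaks lay 39 and 40 bp away. MUC17 held neither word. Its core CAAAG 48 bases before the start lay a median of 27 bp from the summits of 11 lists, between 1 and 71 bp, and within 50 bp in 9 of them. Searched on both strands of 35116 promoter windows of 300 bases, CAAAGTCCA occurred in 0.384% and CAAAGGTCA in 0.407%. The variant CAAAGTTCA occurred in 0.296% of windows and in no member's. The core CAAAG, which the 3 longer words contain, occurred in 47.5% of windows and in those of MUC12, MUC13, MUC16 and MUC17. Words for other epithelial factors were also searched. The HNF1 word GTTAAT, in 6.88% of windows, was found in MUC13. The CDX word TTTATNG, in 9.73% of windows, was found in MUC2 and MUC12. The FOXA word TGTTTAC, in 3.42% of windows, was in no member's window. Nor was AGATAA, a word bound by the zinc-finger factors of the GATA family, which occurred in 10.3%. These are matches of letters, without a claim that the factors bind there.

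MUC13, MUC12, MUC17 and MUC20 had at least 1 peak in 16 of the 18 lists, which are all lists but the HNF4α-P1 antibody lists of sgNC. MUC2 and MUC4 had a peak in 11 lists, MUC1 in 9 and MUC16 in 6. Of the 72 regions, 54 were found in Panc10.05 lists, 28 in BxPC3 lists and 30 in AsPC1 lists, and 11 in lists of all 3 lines. Panc10.05 lists alone held 29 regions, AsPC1 alone 8 and BxPC3 alone 6. Over the whole data set, Panc10.05 lists merged into 49247 regions and BxPC3 lists into 47225, beside 78729 for all lists. The share of all regions confined to a line is not given here. The lines also differ in number and length of lists and in call threshold, so these counts show no line pattern particular to mucins. There were 20 regions in a single list and 10 in 10 or more lists. Only 27 regions had a member as the nearest protein-coding gene and 16 lay inside a member's span, so a peak counted here is near a mucin gene and is not assigned to it.

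**Figure D1:**
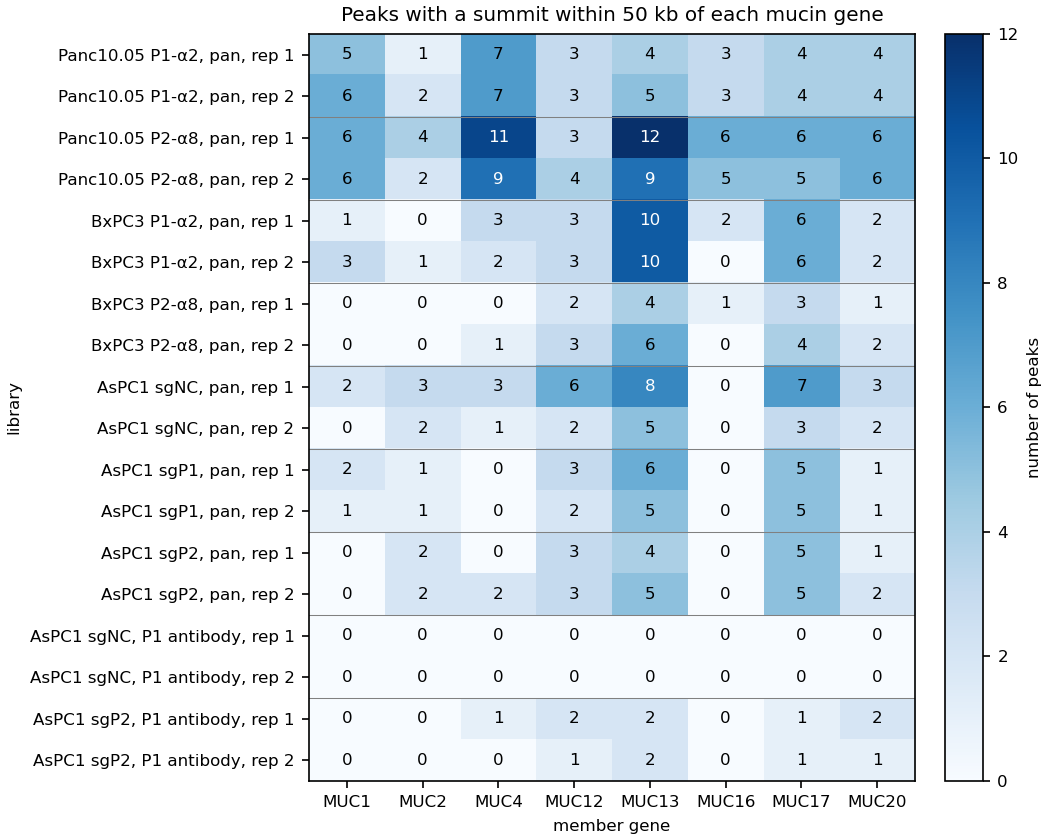
Number of peaks with a summit within 50 kb of each mucin gene (columns) in each of the 18 libraries (rows), with darker blue for more peaks. MUC13 reached 12 peaks in Panc10.05 P2-α8, MUC16 had none in any AsPC1 library, and the 2 sgNC libraries of the P1 antibody had 0 at every gene.

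A peak in both libraries of a group was found for all 8 members in Panc10.05 P1-α2, where 74.5% of all genes had one, and for all 8 in Panc10.05 P2-α8 (79.5% of all genes). It was found for 6 members in BxPC3 P1-α2 (76.6%) and for 4 in BxPC3 P2-α8 (45.4%). In AsPC1 with the pan antibody it was found for 6 members in sgNC (58.5%), 6 in sgP1 (50.6%) and 5 in sgP2 (52%). With the HNF4α-P1 antibody it was found for 4 members in sgP2 (23.7%) and none in sgNC (2.31%). The same 4 members, MUC12, MUC13, MUC17 and MUC20, had a peak in both libraries of each of the 7 pan groups, against 29.6% of all genes. These shares are a description, since a gene with a longer span or a denser neighbourhood has more room for a summit. Overlapping windows also let the same peak count for both MUC12 and MUC17. In sgP2 replicate 2 of the HNF4α-P1 antibody, the only peak of either gene was the one at the MUC17 start.

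MUC13, a transmembrane mucin of the intestinal and colonic surface, spans 29310 bp on chromosome 3 between ITGB5 (integrin β5) and HEG1. Its 50 kb window held 4 and 5 peaks in Panc10.05 P1-α2, 12 and 9 in Panc10.05 P2-α8, 10 and 10 in BxPC3 P1-α2 and 4 and 6 in BxPC3 P2-α8. In AsPC1 it held 8 and 5 peaks in sgNC, 6 and 5 in sgP1, 4 and 5 in sgP2, and 2 and 2 with the HNF4α-P1 antibody in sgP2. In the full lists, the peaks of BxPC3 P1-α2 and Panc10.05 P2-α8 thus outnumbered those of the other isoform in the same line, in opposite directions. When the lists of a line were cut to the same number of strongest peaks, the order was kept in Panc10.05 and lost in BxPC3.

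The peak at the MUC13 start (chr3:124934242-124935249, the printed promoter) was found in all 6 AsPC1 pan lists, all 4 BxPC3 lists, 3 of the 4 Panc10.05 lists and both sgP2 lists of the HNF4α-P1 antibody. In AsPC1 its fold enrichment, the authors' own value, was 22.2 and 18.7 in sgNC, 15.1 and 19.9 in sgP1, and 19.5 and 16.6 in sgP2. Each peak was also placed by its percentile of fold enrichment within its list, 100 being the strongest; percentiles of lists of unequal length describe a place in a list and show no change. The MUC13 start lay at percentiles 87.1 to 94.2 of the AsPC1 pan lists, with no ordering of the guides. It lay at 81.3 and 59.6 in BxPC3 P1-α2 and 69.4 and 48.9 in BxPC3 P2-α8. In Panc10.05 it lay at 53.8 in the single P1-α2 list that held it and at 7.6 and 33.2 in P2-α8. When all 14 pan lists were cut to their 11686 strongest peaks, the MUC13 start stayed in 6 of 6 AsPC1, 3 of 4 BxPC3 and 1 of 4 Panc10.05 lists.

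The region of the MUC13 window found in most lists lay inside ITGB5, 56.0 to 56.9 kb downstream of the MUC13 start (chr3:124877487-124879559). Peaks of this region were found in all 14 pan lists and, at percentiles 48.8 and 71.0, in the sgP2 lists of the HNF4α-P1 antibody. The merged region holds a pair of neighbouring summits that split by line. In the 4 Panc10.05 lists the summits lay 56.8 to 56.9 kb downstream, at percentiles 97.5 to 99.4, in peaks 1910 to 2043 bp wide that covered both positions. In the 4 BxPC3 lists the strongest summit lay 56.0 kb downstream, at percentiles 75.8 to 90.4, and in the AsPC1 pan lists also 56.0 kb downstream, at 84.7 to 95.8. A single list, BxPC3 P1-α2 replicate 2, held both summits. A region inside HEG1, 37.8 kb upstream of the MUC13 start (chr3:124972246-124972832), was found in all 4 BxPC3 lists at percentiles 72.2 to 94.3 and in no Panc10.05 list. Another at 29.4 kb upstream (chr3:124963835-124964888) was found in the 4 BxPC3 lists alone. Apart from the promoter itself, no Panc10.05 list held a peak upstream of the MUC13 start, as the plot of the MUC13 locus shows. At the equal length of 11686 peaks, the region at 37.8 kb was still in 4 of 4 BxPC3 and 0 of 4 Panc10.05 lists.

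**Figure D2:**
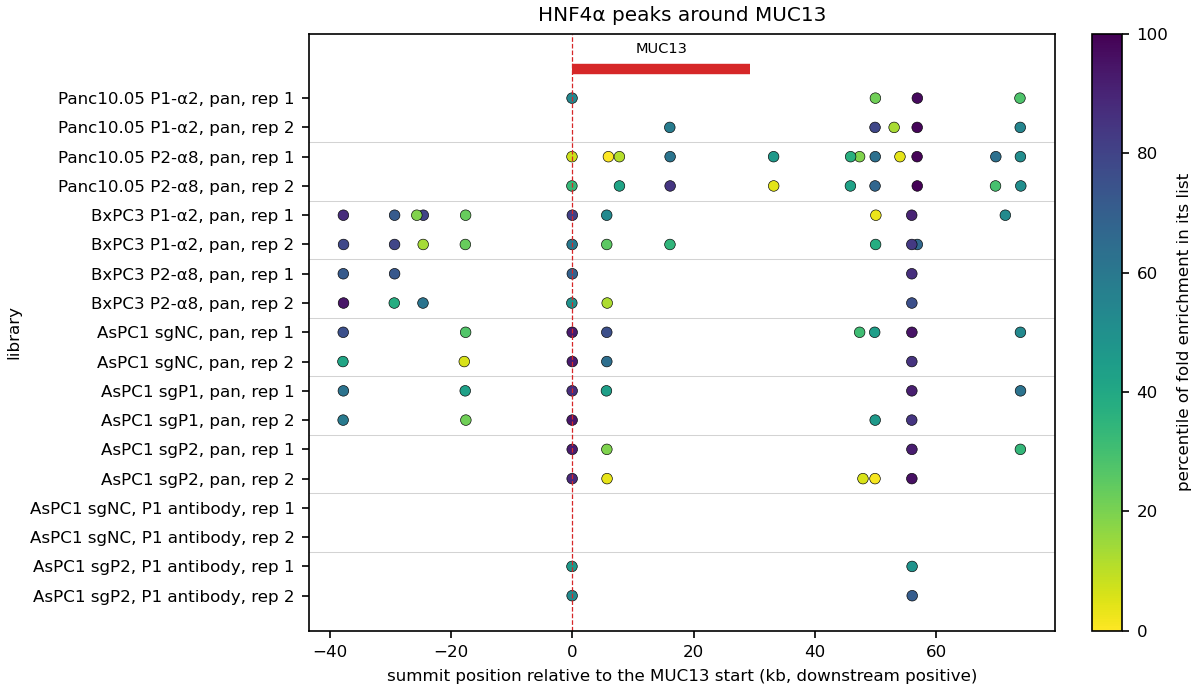
Peak summits around MUC13 in each library (rows), placed by distance from the MUC13 start in kb and coloured by percentile of fold enrichment within the list; the red bar is the gene. A column of points at 0 is the promoter, the Panc10.05 points near 57 kb sit beside the points near 56 kb of the other lines, and points left of the promoter occur in BxPC3 and AsPC1 libraries only.

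MUC17 and MUC12 encode neighbouring membrane mucins of the intestinal surface on chromosome 7, and their windows overlap. MUC17 had 4 and 4 peaks in Panc10.05 P1-α2, 6 and 5 in P2-α8, 6 and 6 in BxPC3 P1-α2 and 3 and 4 in BxPC3 P2-α8. In AsPC1 it had 7 and 3 in sgNC, 5 and 5 in sgP1, 5 and 5 in sgP2, and 1 and 1 with the HNF4α-P1 antibody in sgP2. MUC12 had 3 and 3 peaks in Panc10.05 P1-α2, 3 and 4 in P2-α8, 3 and 3 in BxPC3 P1-α2 and 2 and 3 in BxPC3 P2-α8, a range of 2 to 4 over the induced lists. In AsPC1 it had 6 and 2 in sgNC, 3 and 2 in sgP1, 3 and 3 in sgP2, and 2 and 1 with the HNF4α-P1 antibody in sgP2.

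The peak at the MUC17 start (chr7:101019628-101020592, the printed promoter) was found in no Panc10.05 list, both BxPC3 P1-α2 lists, 1 of the 2 BxPC3 P2-α8 lists and all 6 AsPC1 pan lists. Its fold enrichment in AsPC1 was 21.5 and 25.1 in sgNC, 8.5 and 5.1 in sgP1, and 14.3 and 13.8 in sgP2. Its percentiles were 92.1 and 96.9 in sgNC, 84.9 and 83.7 in sgP2, and 64.7 and 25.1 in sgP1, so the lists of the 3 guides did not overlap and sgP1 was lowest. That order was noticed after the values were seen, rests on 2 libraries a guide and on lists of unequal length, and was not tested. In the sgP2 lists of the HNF4α-P1 antibody it lay at percentiles 81.5 and 74.1, the highest of the 4 mucin-locus regions found in both. At 11686 peaks a list, the MUC17 start stayed in 6 of 6 AsPC1 lists, 1 of 4 BxPC3 lists and 0 of 4 Panc10.05 lists.

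Beyond the neighbouring gene TRIM56, 83.2 kb downstream of the MUC17 start (chr7:101102983-101103935), a region was found in all 14 pan lists. Its percentiles were 89.9 to 92.7 in BxPC3, 36.9 to 76.9 in Panc10.05 and 59.7 to 81.3 in AsPC1. A region inside MUC12 (chr7:100983300-100984973) was found in all 8 induced lists and in 2 AsPC1 lists, with percentiles of 26.6 and 38.1 in Panc10.05 P1-α2, 84.3 and 80.7 in P2-α8, 82.2 and 96.3 in BxPC3 P1-α2, 39.0 and 84.5 in BxPC3 P2-α8, and 27.2 and 36.6 in the AsPC1 lists. Its summits lay at 2 positions, 14.1 kb from the MUC12 start in Panc10.05 P1-α2 replicate 1 and both AsPC1 lists, and 14.6 to 14.8 kb in the others. The region at the start of MUC3A, another membrane mucin (chr7:100948856-100949638), was in the same 8 lists and in 1 list each of sgP1 and sgNC. No peak overlapped the MUC12 promoter window. The closest region, 533 bp upstream of its start (chr7:100968919-100969213), was in a single list, sgNC replicate 1.

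**Figure D3:**
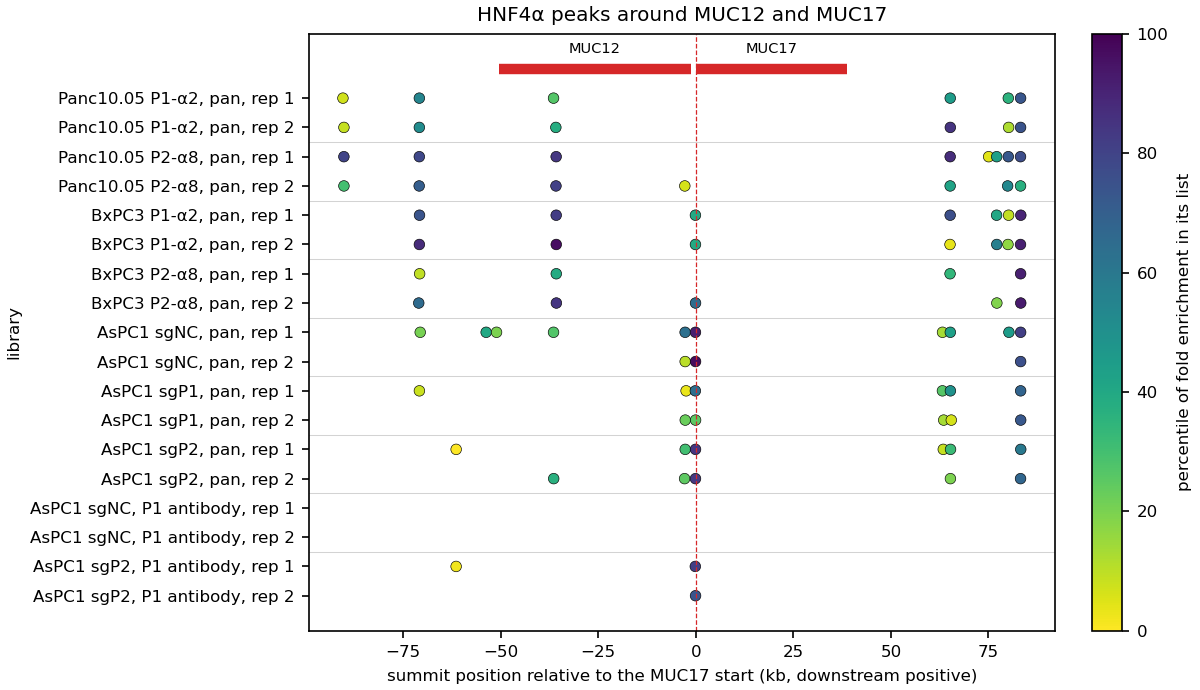
Peak summits around MUC12 and MUC17 in each library (rows), placed by distance from the MUC17 start in kb and coloured by percentile of fold enrichment within the list; red bars are the genes. The column at 0 is filled in the AsPC1 pan libraries and 3 BxPC3 libraries and empty in Panc10.05, while the column near 83 kb is filled in all 14 pan libraries.

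MUC4, a membrane mucin that partners the receptor ERBB2, and MUC20, a small membrane mucin of the kidney and other epithelia, lie side by side on chromosome 3, and 10 of the 72 regions fall in the windows of both genes of a neighbouring pair (MUC4 with MUC20, or MUC12 with MUC17). This part of chromosome 3 holds near-identical copies, MUC20 having a pseudogene copy, so where the authors' alignment placed reads there is uncertain. MUC4 had 7 and 7 peaks in Panc10.05 P1-α2, 11 and 9 in P2-α8, 3 and 2 in BxPC3 P1-α2 and 0 and 1 in BxPC3 P2-α8. In AsPC1 it had 3 and 1 in sgNC, 0 and 0 in sgP1, and 0 and 2 in sgP2, and 1 and 0 with the HNF4α-P1 antibody in sgP2. Every Panc10.05 list was above every list of the other lines. MUC20 had 4 and 4 peaks in Panc10.05 P1-α2, 6 and 6 in P2-α8, 2 and 2 in BxPC3 P1-α2 and 1 and 2 in BxPC3 P2-α8. In AsPC1 it had 3 and 2 in sgNC, 1 and 1 in sgP1, 1 and 2 in sgP2, and 2 and 1 with the HNF4α-P1 antibody in sgP2.

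No peak overlapped the MUC4 promoter. A region 3.47 kb upstream of the MUC4 start (chr3:195815008-195815925) lay 307 bp from LOC124905352, its nearest protein-coding gene. It was found in the 4 Panc10.05 lists and both BxPC3 P1-α2 lists, at percentiles of 43.9 to 69.3 and of 30.8 and 40.7. A region 35.3 kb upstream (chr3:195846784-195847766) was found in the 4 Panc10.05 lists at percentiles 72.7 to 95.5, in 2 AsPC1 lists and in no BxPC3 list. At equal length it stayed in 4 of 4 Panc10.05 lists and in none of the others. Inside the MUC20 span, a region (chr3:195720965-195722820) was found in the Panc10.05 lists alone, at 59.6 and 48.1 in P1-α2 and 95.9 and 80.1 in P2-α8.

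On the side of MUC20 away from MUC4, regions of Panc10.05 and of the other lines lay near each other. A region 42787 bp from the MUC20 span (chr3:195677921-195678759) was found in the 4 Panc10.05 lists alone. A region 36.3 kb from the MUC20 span (chr3:195683694-195685164) was found in 12 lists and in no Panc10.05 list. It was among the strongest mucin-locus peaks in AsPC1, with fold enrichments of 32.2 and 20.6 in sgNC, 11.6 and 13.8 in sgP1, and 11.1 and 16.1 in sgP2. The sgNC lists were above both repressed genotypes, with percentiles of 97.1 and 94.4 against 79.0 and 85.8 in sgP1 and 76.0 and 87.8 in sgP2, an order noticed after the values were seen and not tested. In BxPC3 it was among the weakest peaks of each list, at percentiles 3.3 to 12.1. It was also in both sgP2 lists of the HNF4α-P1 antibody, at 33.8 and 54.5.

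**Figure D4:**
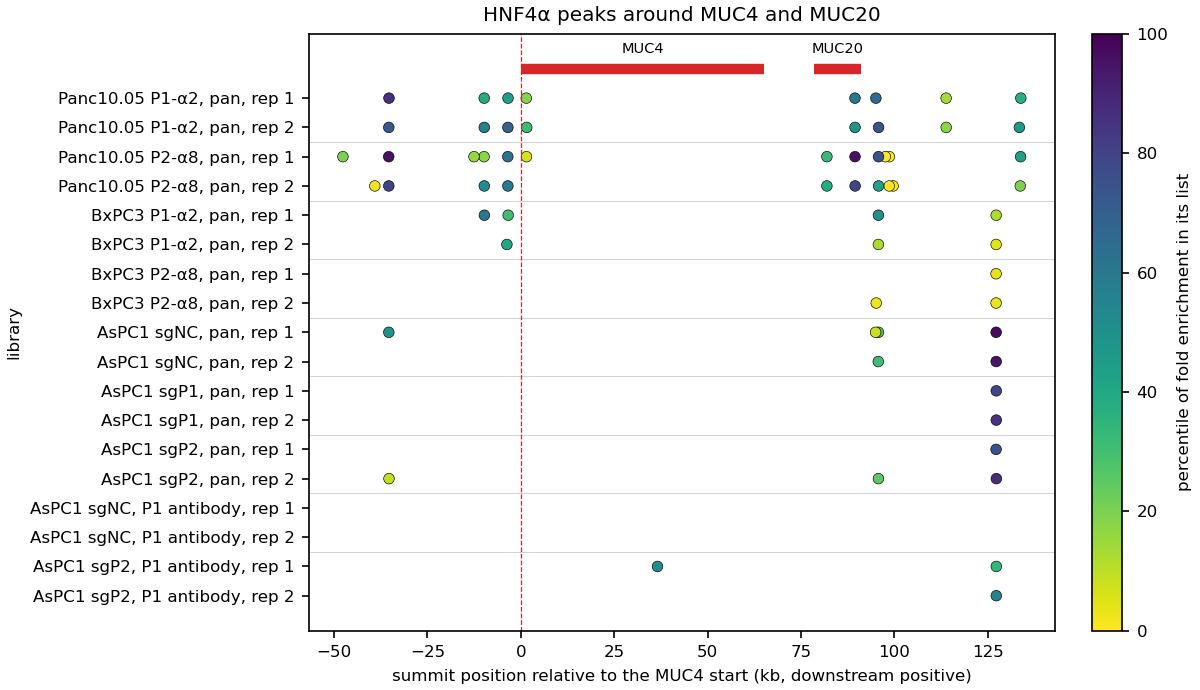
Peak summits around MUC4 and MUC20 in each library (rows), placed by distance from the MUC4 start in kb and coloured by percentile of fold enrichment within the list; red bars are the genes. Panc10.05 libraries fill the MUC4 upstream side and the MUC20 end, while the column near 127 kb holds BxPC3 and AsPC1 points and no Panc10.05 point.

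MUC1, the membrane mucin of most secretory epithelia, which carries the CA15-3 antigen, lies in a dense part of chromosome 1 with 7 other protein-coding genes in its window. It had 5 and 6 peaks in Panc10.05 P1-α2, 6 and 6 in P2-α8, 1 and 3 in BxPC3 P1-α2 and none in BxPC3 P2-α8. In AsPC1 it had 2 and 0 in sgNC, 2 and 1 in sgP1 and none in sgP2. The peak at its start (chr1:155193009-155193969), whose summits lay a median of 489 bp upstream, was found in the 4 Panc10.05 lists, at percentiles 52.9 and 50.4 in P1-α2 and 33.0 and 41.0 in P2-α8. In these lists it reached the MUC1 promoter window, and it was also in both sgP1 lists of AsPC1, at 15.8 and 28.4, where it did not. The MUC1 promoter windows held none of the HNF4 words, but the summits lay further upstream, where the sequence was not searched. The strongest MUC1-window region shared by the Panc10.05 lists was inside TRIM46 (chr1:155178671-155179395), at percentiles 67.6 to 92.7, and it was also in 1 sgP1 and 1 sgNC list.

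MUC16, which carries the CA125 antigen, had 3 and 3 peaks in Panc10.05 P1-α2, 6 and 5 in P2-α8, 2 and 0 in BxPC3 P1-α2, 1 and 0 in BxPC3 P2-α8 and none in AsPC1. Its strongest region lay inside the gene, 8.04 kb upstream of the second promoter (chr19:9017934-9019127), at percentiles 91.0 to 96.3 in the 4 Panc10.05 lists and 71.7 in 1 BxPC3 P1-α2 list. The peak over the second promoter itself (chr19:9010256-9010701) was in both Panc10.05 P2-α8 lists, at 35.3 and 34.6, and in no other list. The region found in most lists lay 10066 bp upstream of the whole span (chr19:9075417-9076356), in the 4 Panc10.05 lists and in the first replicates of BxPC3 P1-α2 and P2-α8. No peak overlapped the outer MUC16 promoter.

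MUC2, the only secreted member, had 1 and 2 peaks in Panc10.05 P1-α2, 4 and 2 in P2-α8, 0 and 1 in BxPC3 P1-α2 and none in BxPC3 P2-α8. In AsPC1 it had 3 and 2 in sgNC, 1 and 1 in sgP1 and 2 and 2 in sgP2. Its promoter was not overlapped in any list. The region found most often, in 10 lists (chr11:1153674-1154565), lay 79.2 kb downstream of the MUC2 start and 3833 bp from MUC5AC, a gel-forming mucin of the stomach and airway, which is its nearest gene. Its percentiles were 75.7 and 92.3 in Panc10.05 P1-α2, 84.2 and 77.3 in P2-α8, and 70.0 and 60.8 in AsPC1 sgNC. At 11686 peaks a list it stayed in 4 of 4 Panc10.05, 5 of 6 AsPC1 and 0 of 4 BxPC3 lists.

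Promoter overlap in both libraries of a group was counted over the 9 member promoters, of which the 2 of MUC1 nearly coincide and are overlapped by the same peak. Both libraries had a peak over 2 of them in Panc10.05 P1-α2 (5.88% of all promoter windows), both of MUC1. In Panc10.05 P2-α8 it was 4 (8.71%): both of MUC1, MUC13 and the second of MUC16. MUC13 and MUC17 were the 2 in BxPC3 P1-α2 (3.18%), and MUC13 the 1 in BxPC3 P2-α8 (0.963%). MUC13 and MUC17 were also the 2 in AsPC1 sgNC (5.72%), sgP1 (3.77%) and sgP2 (4.14%) with the pan antibody, and in sgP2 with the HNF4α-P1 antibody (0.883%). There were none in sgNC with that antibody (0.0427%).

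The first comparison was between the isoforms. In Panc10.05 the 8 loci together held 27 and 30 peaks in P1-α2 (28.5 ± 2.12, SD, n = 2) and 48 and 39 in P2-α8 (43.5 ± 6.36, SD, n = 2). In BxPC3 they held 24 and 24 in P1-α2 (24 ± 0, SD, n = 2) and 10 and 13 in P2-α8 (11.5 ± 2.12, SD, n = 2). On the log2(number + 1) scale, P1-α2 differed from P2-α8 by -0.59 in Panc10.05 (pooled SD 0.16) and by 1.01 in BxPC3 (pooled SD 0.17). The groups did not overlap in either line. Each two-sided exact permutation p was 0.333, the smallest that 2 libraries against 2 can give (0.667 after Benjamini-Hochberg adjustment over 6 comparisons). The direction in BxPC3 depends on the length of the lists, which held 41808 and 33737 peaks for P1-α2 and 12681 and 14666 for P2-α8. Per 1000 peaks of a list, the mucin loci held 0.574 and 0.711 peaks in BxPC3 P1-α2 and 0.789 and 0.886 in P2-α8. In the 12681 strongest peaks of each BxPC3 list there were 11 and 7 for P1-α2 and 10 and 10 for P2-α8. In the 24828 strongest peaks of each Panc10.05 list there were 27 and 23 for P1-α2 and 27 and 28 for P2-α8, so that the groups met at 27.

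**Figure D5:**
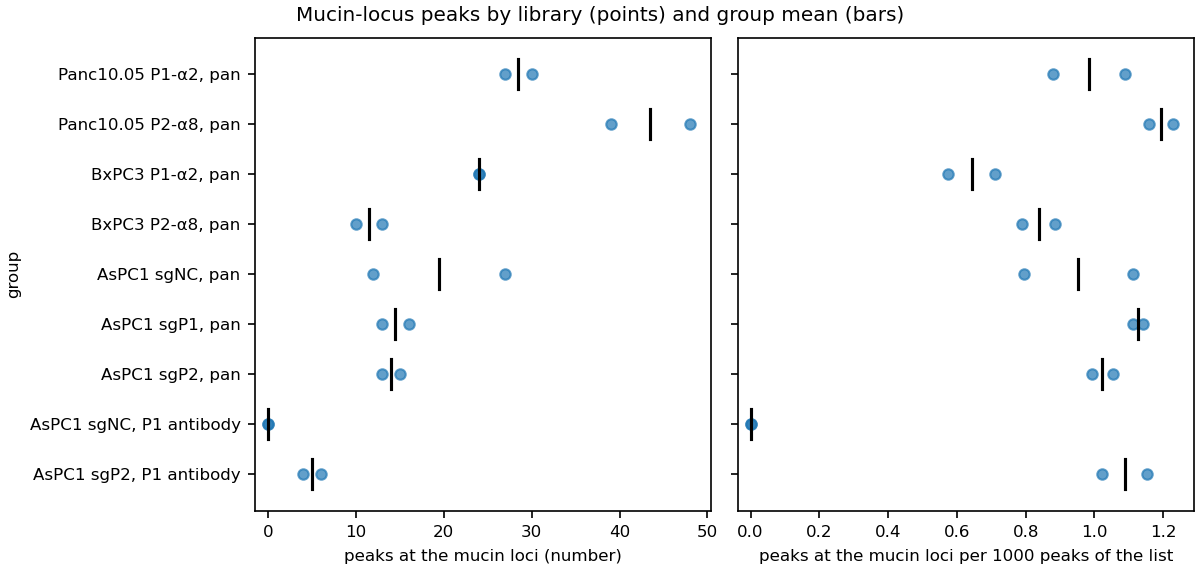
Peaks at the 8 mucin loci in each library (points) with the mean of the 2 libraries of each group (black bars), as a number on the left and per 1000 peaks of the list on the right. BxPC3 P1-α2 lies above P2-α8 on the left (24 and 24 against 10 and 13) and below it on the right (0.574 and 0.711 against 0.789 and 0.886).

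By gene, MUC4, MUC13, MUC16, MUC17 and MUC20 had more peaks in both P2-α8 lists than in either P1-α2 list of Panc10.05, against 23.9% of all genes. None had the reverse, against 3.46%. In BxPC3, MUC1, MUC4, MUC13 and MUC17 had more in both P1-α2 lists, against 58% of all genes, and none had the reverse, against 0.02%. The median log2 difference, P1-α2 minus P2-α8, was -0.47 over the 8 members and -0.21 over all genes in Panc10.05, and 0.57 over the members and 0.79 over all genes in BxPC3. Adjusted over all 20037 genes, the exact permutation p was 1 for each member in Panc10.05 and at least 0.575 for each in BxPC3. MUC13 had the largest contrast between the lines, with a log2 difference of -1.06 in Panc10.05 and 0.89 in BxPC3. At equal length MUC13 had 4 and 4 peaks in P1-α2 and 7 and 8 in P2-α8 in Panc10.05, and 5 and 4 against 4 and 5 in BxPC3. The Panc10.05 groups of MUC13 thus stayed apart at equal length and the BxPC3 groups did not. The other genes named for Panc10.05 did not stay apart at equal length. P1-α2 against P2-α8, MUC4 had 7 and 6 against 4 and 6, and MUC16 3 and 1 against 3 and 4. MUC17 had 4 and 3 against 5 and 4, and MUC20 4 and 3 against 3 and 3. MUC1 then had the reverse order in Panc10.05, with 5 and 5 in P1-α2 against 3 and 3 in P2-α8.

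By region, 24 of the 54 mucin-locus regions of Panc10.05 were in all 4 lists. The share of all regions in all 4 lists is not given here for either line. There were 9 in both P2-α8 lists and neither P1-α2 list, against 10.9% of all Panc10.05 regions, and 2 of the reverse kind, against 3.64%. The 3 P2-α8 regions highest in their lists were inside ITGB5 (chr3:124864656-124865145, percentiles 63.4 and 29.4), inside ITGB5 nearer its start (chr3:124888597-124889135, 37.0 and 42.3) and inside MUC20 (chr3:195729816-195730219, 32.8 and 38.4). Merged from the BxPC3 lists alone, the peaks gave 29 regions, where 28 of the 72 regions of all lists were found in BxPC3. Of the 29, 8 were in all 4 lists and 5 were in both P1-α2 lists alone, against 28.2% of all BxPC3 regions. The highest of these were near KRTCAP2 in the MUC1 window (chr1:155159040-155159502, 52.0 and 55.6), the region upstream of MUC4 (30.8 and 40.7) and a region 17.7 kb upstream of MUC13 (chr3:124952167-124952721, 23.2 and 23.1). None was in both P2-α8 lists alone, against 0.129%. At equal length there were 2 regions in Panc10.05 P2-α8 alone and 3 in P1-α2 alone, so the excess of P2-α8 was not kept, and 0 in BxPC3 P1-α2 alone. The count of 9 was 21 without Panc10.05 P2-α8 replicate 2, and the count of 5 was 9 or 10 without either BxPC3 P1-α2 library or without BxPC3 P2-α8 replicate 2.

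The second comparison was between the induced lines, where line, doxycycline dose and sequencing series cannot be told apart. Over all 8 libraries, Panc10.05 exceeded BxPC3 in mucin-locus peak number by 1.04 on the log2(number + 1) scale, with a two-sided p of 0.0286 in an exact permutation test, as small as its 70 splits can give. It did not pass at an equal length of 12681 peaks (0.37, exact permutation p = 0.0571), per 1000 peaks of the list (0.53, exact permutation p = 0.0571), in a window of 100 kb (0.92, exact permutation p = 0.0571) or without MUC4 and MUC20 (0.80, exact permutation p = 0.114). With splits within isoform the exact permutation p was 0.0556, and with the replicate number as a block (16 splits) it was 0.125. Both are the smallest these settings allow, so neither setting could pass. Without any single Panc10.05 library the difference was 0.89 to 1.16 with an exact permutation p of 0.0857, and without BxPC3 P2-α8 replicate 1 it was 0.81 with an exact permutation p of 0.0571. By gene, MUC1, MUC4, MUC16 and MUC20 had more peaks in every Panc10.05 list than in any BxPC3 list, against 12.9% of all genes, with log2 differences of 2.00, 2.08, 1.70 and 1.13. None had the reverse, against 1.4%. Each of these 4 had an exact permutation p of 0.0286, the smallest possible, and of 0.1997 after adjustment over all genes. MUC12, MUC13 and MUC17 had log2 differences of 0.18, -0.03 and 0.02 with overlapping lists, and the median difference was 1.25 over the 8 members and 0.41 over all genes. MUC13 had the same mean number of peaks, 7.5, in both lines, at the partly different sites described above.

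The third comparison was between the guides in AsPC1, where sgP1 and sgP2 share the sgNC libraries as their control. With the pan antibody the loci held 27 and 12 peaks in sgNC (19.5 ± 10.6, SD, n = 2), 16 and 13 in sgP1 (14.5 ± 2.12, SD, n = 2) and 13 and 15 in sgP2 (14 ± 1.41, SD, n = 2). The first sgNC library had the longest AsPC1 list, 24295 peaks against 15118 in the second. The log2 difference from sgNC was -0.31 for sgP1 (pooled SD 0.57) and -0.35 for sgP2 (pooled SD 0.56), each with overlapping groups, a two-sided exact permutation p of 1 and an adjusted p of 1. Without the first sgNC library the differences were 0.25 and 0.20. The difference between sgP1 and sgP2 was 0.04 (pooled SD 0.17, exact permutation p = 1). Among the 11686 strongest peaks of a list, sgNC had 11 and 10 at the loci, sgP1 11 and 13, and sgP2 12 and 10. No difference in peak number between guides was larger than the spread between libraries.

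Regions were also counted by presence in the lists, as a description, since a site missing from a short list is not shown to be unbound. The regions found in sgNC alone were no larger a share at the mucin loci than among all regions. Of 29 mucin-locus regions of sgP1 and sgNC, 1 was in both sgP1 lists and neither sgNC list, against 0.409% of all regions. It was the peak upstream of MUC1 (chr1:155193186-155193543), which was absent from both sgP2 lists too. The reverse held for 1 region, near MUC20 (chr3:195716072-195716323, 4.78 kb from its span, percentiles 27.4 and 30.5 in sgNC), against 8.97%. Of 30 regions of sgP2 and sgNC, none was in sgP2 alone, against 0.407%, and 2 were in sgNC alone, against 7.2%. Both lie upstream of MUC13, inside HEG1 at 37.8 kb (percentiles 75.6 and 41.2 in sgNC) and before it at 17.7 kb (27.0 and 5.97). The same 2 regions were in both sgP1 lists, at 61.8 and 59.0 and at 43.3 and 21.7, and in neither sgP2 list. With the MUC1 region they were the 3 of 24 regions in sgP1 and not sgP2, against 2.75%, and none was in sgP2 and not sgP1, against 4.32%. At a −log10 q of at least 20 no region was in both sgP1 lists and neither sgP2 list, and 1 was of the reverse kind. Without sgNC replicate 2, the lists of sgNC alone held 10 regions absent from sgP1 and 11 absent from sgP2.

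The last comparison was with the HNF4α-P1 antibody in AsPC1. The loci held 6 and 4 peaks in sgP2 (5 ± 1.41, SD, n = 2) and were listed at 0 in both sgNC libraries, whose lists held 697 and 260 peaks against 5200 and 3916. The two-sided exact permutation p was 0.333, the smallest possible (0.667 adjusted). Per 1000 peaks of the list, sgP2 held 1.15 and 1.02, beside the 1.05 and 0.992 of the sgP2 lists of the pan antibody. Of the 6 regions, 4 were in both sgP2 lists and neither sgNC list, against 36% of all regions of these lists, and none in sgNC alone, against 0.0638%. The 4 were the MUC17 start, the ITGB5 region downstream of MUC13, the MUC13 start and the region beyond MUC20, and all 4 were also in every AsPC1 pan list. When the lists were cut to the 260 strongest peaks, none of them held a mucin-locus peak, so a difference at these loci was not detectable at the length of the sgNC lists.

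The enzymes that build mucin O-glycans and the genes of goblet cells and mucus assembly were counted in the same way, on lists of 9 other mucins, 21 glycosylation enzymes and 16 goblet cell genes. A peak in both libraries of every pan group was found for 12 of the 21 enzymes, 6 of the 16 goblet cell genes and 1 of the 9 other mucins, beside 4 of the 8 members and 29.6% of all genes. The enzymes included GALNT2, GALNT4, GALNT5, GALNT10 and GALNT12, which start O-glycosylation, C1GALT1, which makes core 1, GCNT1 and GCNT3, which branch it, B3GNT3, which extends it, and ST3GAL1, FUT2 and FUT3, which cap it. B3GNT3 had a peak in all 18 lists, between 1 and 6 each. The goblet cell genes were AGR3, a relative of the mucin-folding protein AGR2, CLCA1, ZG16, SPINK4, BCAS1 and TGM3, and the mucin was MUC3A. A peak in both libraries was found for 7 of the 9 other mucins in Panc10.05 P1-α2 (74.5% of all genes) and 7 in P2-α8 (79.5%), 4 in BxPC3 P1-α2 (76.6%), 1 in BxPC3 P2-α8 (45.4%), 4 in AsPC1 sgNC (58.5%), 2 in sgP1 (50.6%) and 3 in sgP2 (52%).

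The genes whose peak number most resembled each member's over the 18 lists were found by Pearson correlation, given as a description because the lists share their lengths. For MUC13 they were CLRN3 (r = 0.965), WNT11 (0.960) and EMP1 (0.960). MUC17 was most like H4C6 (0.951), MUC12 like CCL20 (0.958), MUC1 like CCND3 (0.971), MUC4 like FAM168B (0.986) and MUC2 like FASTK (0.959).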

How the data were processed

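HNF4α ChIP-seq peak lists of 18 libraries were analysed (9 groups of 2); 14 input libraries were not used here. The submitters' processing notes name Bowtie2 2.2.9, MACS2 2.2.7 and the builds hg38 and mm10, with no roles. In the deposited narrowPeak lists, each peak has a fold enrichment (a ratio on a linear scale), a p and a q on a −log10 scale, and an integer score. These are the authors' values. Percentiles were taken within a list, and fold enrichments of different lists are set side by side only as a description. Peaks were called per library; the control used and the depth are not given in the sources used here, so no interval for reads can be given. Coordinates are the lists', written 1-based, and fit the GRCh38.p14 RefSeq tables; exon tables were not used here.

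Summits within 50 kb of a gene's span were counted, each peak once per total, and peaks overlapping by at least 1 bp were merged. Numbers were compared as log2(number + 1) by two-sided exact permutation tests over libraries; gene-level tests were run on 20037 protein-coding genes with Benjamini-Hochberg adjustment. Named sites were, for each member, the region in most lists, regions within 1 kb of a start, and up to 3 regions per direction of a comparison with the highest mean percentile; other named sites were chosen after their values were seen. Some regions that this rule selects are not reported here. The members and gene lists were chosen with earlier results of these data known. Alternatives were windows of 10 and 100 kb, stricter −log10 q, list length, nearest gene, 50% reciprocal overlap, leaving out MUC4 and MUC20 and leaving out each library. The equal-length counts by gene and site and the promoter words were chosen after seeing the data. A search for motifs around summits was planned and not run, because no genome sequence was used. Deviations of libraries with the same replicate number had correlations between -0.067 and 0.068. These do not show whether the libraries were prepared in pairs. Python 3.11.15, numpy 2.4.6, pandas 2.3.3 and matplotlib 3.10.9 were used, and overlaps were checked against bedtools 2.31.1.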

Additional observations from a re-analysis of the deposited data

Results flagged for a closer look

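The difference between the isoforms ran in opposite directions in the 2 induced lines. For the total over the 8 loci, the P1-α2 minus P2-α8 difference in BxPC3 exceeded that in Panc10.05 by 1.60 (log2). The exact permutation test, two-sided over 36 relabellings within the lines, gave p = 0.0556, as small as it can be. By gene, every library moved one way in one line and the other way in the other line at MUC4 (1.75), MUC13 (1.95) and MUC17 (1.02). The gene differences were not tested, and they are those of the full lists. At equal list length in BxPC3, MUC4 had 0 peaks in every list. MUC13 then had 5 and 4 in P1-α2 against 4 and 5 in P2-α8, and MUC17 3 and 2 against 3 and 4. The opposite directions were thus not kept at these genes. At equal list length the difference in the total was -0.059, and per 1000 peaks of the list it was -0.088.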

How the results depend on the processing

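Of the 242 alternative values, 177 were scored as the same, 11 fell short of the threshold, 37 moved and 17 reversed. A test was the same if it did not reverse and kept its side of the threshold. A count was the same if it stayed near the main count. A test of 2 libraries against 2 could not pass, since its smallest exact permutation p is 0.333. A −log10 q of at least 8 left the induced lists as they were. The 177 are thus no measure of robustness. Among the 11 are the splits within isoform and the replicate block, which could not pass. The cause was not tested, except that a setting with fewer peaks or libraries changes counts by its construction. Per 1000 peaks of the list and at equal length, the BxPC3 isoform difference was -0.36 and -0.17, sgP1 against sgNC 0.25 and 0.17, sgP2 against sgNC 0.11 and 0.058, the isoform difference between the lines -0.088 and -0.059, and Panc10.05 against BxPC3 0.53 and 0.37. That line difference was 0.92 at 100 kb (exact permutation p = 0.0571), 0.80 without MUC4 and MUC20, and 0.81 to 1.20 without each library. With splits within isoform it was 1.04 (exact permutation p = 0.0556). With the replicate block it was 1.04 (exact permutation p = 0.125), and no other call changed. Both p-values are the smallest their settings allow, so neither setting could pass. Whether the replicate numbers pair the libraries is not known. sgP1 against sgP2 was -0.10 at 10 kb, -0.27 at 100 kb, -0.14 and -0.26 at a −log10 q of at least 8 and 20, and -0.18 by nearest gene. Leaving out each library gave -0.10 to 0.18 for it, -0.86 to 0.25 for sgP1 over sgNC and -0.90 to 0.20 for sgP2 over sgNC. The share scale added 0.0534 per 1000 peaks, a constant chosen after seeing the data, since adding 1 peak to very short lists with 0 peaks had set the sign of the HNF4α-P1 comparison.

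Members with a peak in both libraries numbered 3 in BxPC3 P1-α2 at equal length, 2 and 7 in BxPC3 P2-α8 at 10 and 100 kb, 3 in sgP1 at a −log10 q of at least 20, 3 in sgP2 at 10 kb, and 2 and 0 with the HNF4α-P1 antibody at that q and at equal length. Regions of one group only, at a −log10 q of at least 20, numbered 5 for Panc10.05 P2-α8, 0 for sgP1 over sgNC and over sgP2, 0 for sgNC over sgP2, 1 for sgP2 over sgP1 and 1 with the HNF4α-P1 antibody. At equal length they numbered 2 for Panc10.05 P2-α8 and 3 for P1-α2, 0 for BxPC3 P1-α2, 2 for sgP1 over sgNC, 1 for sgNC over sgP2 and 0 with the HNF4α-P1 antibody; with 50% reciprocal overlap sgP2 over sgNC had 1. Leaving out each library gave 10 to 21 for Panc10.05 P2-α8, 6 to 10 for BxPC3 P1-α2, 1 to 2 for sgP1 over sgNC, 1 to 10 for sgNC over sgP1, 0 to 2 for sgP2 over sgNC, 2 to 11 for sgNC over sgP2, 3 to 5 for sgP1 over sgP2 and 1 to 5 for sgP2 over sgP1. The planned motif share around summits was not run. Read depth is unknown, so a site missing from a short list is not shown to be unbound.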
